A study of Mus musculus with 2 samples.

Results

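Retinoic acid is made, held and destroyed by a small set of enzymes and binding proteins, and 9 of their genes are described here in the mouse heart at E11.5. They are the retinaldehyde dehydrogenase genes Aldh1a1, Aldh1a2 and Aldh1a3, the retinol-retinaldehyde genes Rdh10 and Dhrs3, the cellular binding protein genes Crabp1 and Crabp2, and the cytochrome P450 genes Cyp26a1 and Cyp26b1. All probes named with one of these symbols in the platform annotation were taken, which gave 14 probes for the 9 genes, out of 45281 probes and 19057 named genes on the array. One group was all cells dissociated from E11.5 hearts, called total heart, and the other was epicardial cells positive for lacZ, isolated from hearts of that stage, the epicardium being the cell layer on the heart's surface. Both groups carried the Tcf21lacZ allele, so neither is a wild type, and both had mixed ancestry from the strains C57BL/6, 129 and CD-1. The labels do not say how many hearts were pooled or whether the allele was carried on one or both chromosomes. Each group had 1 Illumina bead array, so no difference below has a replicate check or a test between groups, and all are described by size. Epicardial cells are themselves part of total heart, so a ratio sets a fraction against the whole that holds it.

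As background, retinol is first oxidised to retinaldehyde, mainly by RDH10 in the embryo, and DHRS3 works in the reverse direction. The ALDH1A enzymes then oxidise retinaldehyde to retinoic acid irreversibly, and ALDH1A2 is the main one in the embryonic heart, where the epicardium is a known site of its expression. CRABP1 and CRABP2 bind retinoic acid in the cytosol, CRABP2 being known for delivery to the nuclear receptors, and CYP26 enzymes oxidise it to inactive products. Retinoic acid acts by binding receptors of the RAR family, which sit on DNA as partners of RXR proteins.

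The classical site of that binding is a pair of 6-base sites in the same orientation, 5 bases apart, called DR5. Well-known sites of this kind lie in the genes for the receptor RARβ and for CYP26A1, and are shown here because these genes are used as readouts of retinoic acid. Below are the 100 bases before the RefSeq start of each gene (GRCm38.p6, given 5′ to 3′ on the gene's own strand), with the DR5 in capitals. The Rarb stretch is chr14:16575477-16575576 on the minus strand and the Cyp26a1 stretch is chr19:37697708-37697807 on the plus strand.
Rarb: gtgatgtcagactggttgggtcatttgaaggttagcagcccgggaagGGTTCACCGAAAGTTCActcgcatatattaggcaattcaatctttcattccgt
Cyp26a1: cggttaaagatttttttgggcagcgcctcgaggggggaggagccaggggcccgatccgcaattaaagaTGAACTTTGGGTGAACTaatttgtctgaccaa
The consensus 6-base site AGGTCA was searched on both strands together with the variant AGTTCA, the further variant GGGTCA and the fourth form, which is GGTTCA. The Cyp26a1 pair lies on the opposite strand to the gene. The Rarb pair ends 37 bases before the start, and the Cyp26a1 pair ends 16 bases before it. Of 32817 RefSeq promoter windows of the same length, from 250 bases before a start to 50 after, 32 (0.0975%) held a DR5.

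The same table held 9 windows for 6 of the 9 genes, namely Aldh1a1, Aldh1a2, Dhrs3, Crabp1, Cyp26a1 and Cyp26b1. Apart from that of Cyp26a1, none of these windows held a DR5, and 0 of the 9 held a DR2, the same pair 2 bases apart, which 0.268% of all windows held. The 100 bases before the start of the 2 genes that were higher in the lacZ-positive cells are shown as the upstream sequence of these genes, and no result below rests on them. The Aldh1a2 stretch is chr9:71215689-71215788 and the Aldh1a1 stretch, at the second of its 2 listed starts, is chr19:20601868-20601967, both on the plus strand.
Aldh1a2: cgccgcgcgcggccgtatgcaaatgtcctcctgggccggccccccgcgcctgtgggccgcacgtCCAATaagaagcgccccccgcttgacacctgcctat
Aldh1a1: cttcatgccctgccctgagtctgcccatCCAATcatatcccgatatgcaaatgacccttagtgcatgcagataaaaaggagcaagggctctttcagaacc
The capitals mark CCAAT, a common promoter element searched on both strands, at -36 in Aldh1a2 and at -72 in Aldh1a1, where a further copy spans the start at -2. The window at the other Aldh1a1 start held 0 copies. CCAAT was present in 37.4% of all windows, so its presence in both is not particular to them.

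Both arrays had a median of 43 beads for each probe. Median raw intensity was 57.6 in total heart and 63.5 in the lacZ-positive cells, where 15553 and 16226 probes were detected. Detection required a p-value under 0.01, the p-value being the share of negative control probes at least as bright. Tcf21, the locus of the lacZ insertion, had a log2 ratio of 1.34, or 2.53-fold more signal in the lacZ-positive cells. Where its probe lies relative to lacZ is not given, so this value does not check the isolation. Of 8 detected epicardial and mesothelial markers, 7 were at least 2-fold higher there, or 6 of 7 without Tcf21. Among them Lrrn4 was detected in the lacZ-positive cells only, so its direction is not independent of the filter. Its bound was 3.18-fold higher. Over all 8 the log2 ratios ran from 0.79 for Krt19, the one within 2-fold, to 2.13 for Upk1b. Their summed normalised intensity was 5589 in total heart and 18995 in the lacZ-positive array, or 4495 and 16223 without Tcf21. Msln and Tbx18 were detected on neither. Of 8 detected mesenchymal markers 6 were at least 2-fold higher, the 8 log2 ratios lay between 0.97 (Col1a1) and 1.65 (Loxl1), and the sum of the 8 went from 10907 to 29761. Of 10 detected cardiomyocyte markers 8 were at least 2-fold lower, and the 10 log2 ratios lay between -3.04 (Nppa) and -0.69 (Myl2). All 7 detected erythroid markers were lower, between Hemgn at -3.22 and Epor at -1.81. Of these, Gata1 was detected in total heart only and passed the filter through it, with a bound of 3.2-fold lower. Cardiomyocyte markers summed to 104756 and 43647, and erythroid markers to 48121 and 10938, so signal of both lists was still read on the lacZ-positive array. Which cells carried that signal was not tested.

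**Figure D1:**
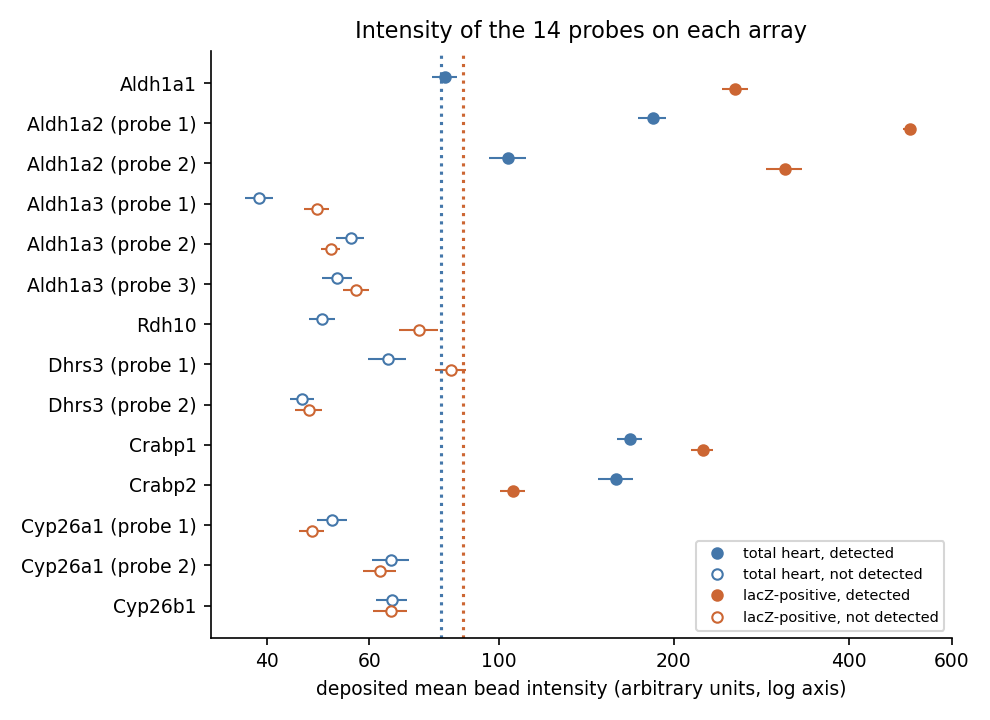
Deposited mean bead intensity (log axis, arbitrary units) of the 14 probes on the total heart array (blue) and the lacZ-positive array (orange), with bars for the standard error over beads. Filled points were detected at p under 0.01, and dotted lines mark the dimmest detected probe of each array, at 79.7 and 86.9. The 2 probes of Aldh1a2 and those of Aldh1a1, Crabp1 and Crabp2 were detected on both arrays, and the other 9 probes on neither.

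Of the 9 genes, 4 were detected, all on both arrays. For comparison, 9713 of the 19057 named genes were detected on 1 array or more. The synthesis genes Aldh1a1 and Aldh1a2 were each over 2-fold brighter in the lacZ-positive cells, the binding protein gene Crabp2 was at least 2-fold lower and Crabp1 was within 2-fold. Over the whole array, 371 of 9713 detected genes (3.82%) were at least 2-fold higher and 626 (6.44%) at least 2-fold lower. With no normalisation between the arrays these numbers were 1020 (10.5%) and 381 (3.92%), and the median over all genes moved from 0.0442 to 0.419 on the log2 scale. Among the 4298 detected genes as dim as these, with a mean log2 signal under 8, 4.63% were higher and 8.84% lower. Aldh1a2 was just above that limit by its brighter probe. The median log2 ratio of the 4 genes was 0.69, but they moved in different directions and the median describes none of them.

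Aldh1a2, whose product is the enzyme the embryonic epicardium is best known for in this pathway, was read by 2 probes. The brighter, ILMN_2630749, had a raw intensity of 184 ± 10.1 (bead standard error, 32 beads) in total heart and 508 ± 13.3 (39 beads) in the lacZ-positive cells. The dimmer, ILMN_2630753, had 104 ± 7.68 (32 beads) and 310 ± 22.1, the last from only 19 beads. Both probes were brighter in the lacZ-positive cells by many times their bead error. After background correction and quantile normalisation the brighter probe stood at a log2 signal of 7.43 in total heart and 8.70 in the lacZ-positive cells. This was a log2 ratio of 1.27 (bead standard error 0.105), or 2.41-fold higher. The dimmer probe went from 6.31 to 7.92, a log2 ratio of 1.61 (0.197), or 3.04-fold. The probes thus differed by 0.34 in log2 ratio with a bead standard error of 0.223. Among the 2145 genes with exactly 2 probes detected on both arrays the median such difference was 0.20, and 27.5% of them had a difference at least as large.

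Aldh1a1, which encodes another retinaldehyde dehydrogenase and is best known in the developing eye and in adult tissues, had the largest ratio of the 9 genes. Its single probe had a raw intensity of 81.0 ± 4.01 (42 beads) in total heart and 255 ± 12.9 (41 beads) in the lacZ-positive cells. The total heart value lay barely above the dimmest detected probe of that array, with a detection p-value of 0.00855, while the lacZ-positive value was far above it. On the log2 scale the signal was 5.70 in total heart and 7.58 in the lacZ-positive cells, a log2 ratio of 1.89 (bead standard error 0.151), or 3.70-fold. That ratio was the 22nd highest of the 9713 detected genes, and the ratio of Aldh1a2 was the 177th. For comparison, Aldh1a1 lay between the mesothelial markers Krt7 (1.85) and Upk3b (1.91), and Aldh1a2 lay close to Tcf21 (1.34). The mesenchymal markers Sox9 (1.48) and Twist1 (1.14) lay on either side of Aldh1a2, and Loxl1 (1.65) was the highest of that list. Which cells carried either signal was not tested. A detection limit of 0.005, chosen after seeing the data, would leave Aldh1a1 detected in the lacZ-positive cells only. The size of its ratio depended on the processing. With no background correction the log2 ratio was 1.38, and in the authors' processed values, whose making is not stated, it was 1.29. Aldh1a7, a close relative of Aldh1a1 in the mouse, was detected on neither array, with raw intensities of 61.8 and 80.4. Whether the Aldh1a1 probe also binds Aldh1a7 RNA was not tested.

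Aldh1a3, the third gene of this enzyme group, was not detected by any of its 3 probes. Their raw intensities lay between 38.8 and 55.7 in total heart and between 48.8 and 57.0 in the lacZ-positive cells. Each lay under the dimmest detected probe of its array. Aldh1a3 RNA was therefore not detectable at this sensitivity in either sample.

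**Figure D2:**
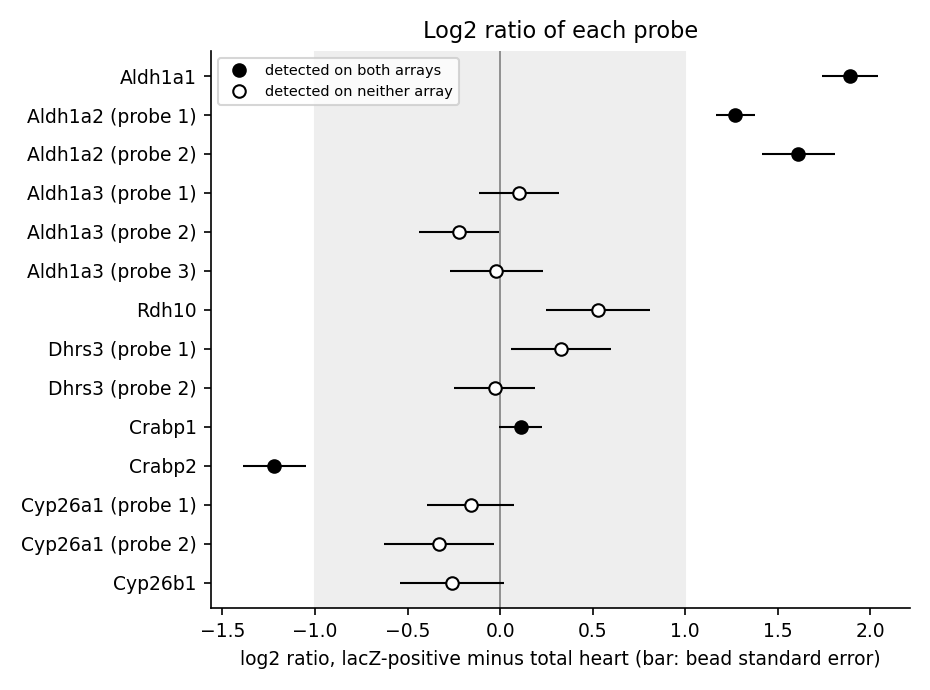
Log2 ratio of each of the 14 probes, lacZ-positive minus total heart, with bars for the bead standard error. The shaded band is within 2-fold. Filled points (detected on both arrays) reach 1.89 for Aldh1a1 and -1.22 for Crabp2, and all open points (detected on neither) lie between -0.33 and 0.53.

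The genes of the retinol-retinaldehyde step were dim. Rdh10, the retinol dehydrogenase that supplies retinaldehyde, had a raw intensity of 49.8 ± 2.60 in total heart and 73.1 ± 5.74 in the lacZ-positive cells, with detection p-values of 0.417 and 0.0417. Dhrs3, whose product returns retinaldehyde to retinol and which is induced by retinoic acid, had 64.5 ± 4.74 and 82.9 ± 4.99 by its brighter probe, with detection p-values of 0.0545 and 0.0139. By these probes both genes were nearer to detection in the lacZ-positive cells than in total heart. At a detection limit of 0.05 each was detected in the lacZ-positive cells only. They thus passed that limit through 1 array, and no difference in size is read from this. Their log2 ratios were 0.53 and 0.33, with bead standard errors of 0.282 and 0.269. The other Dhrs3 probe, at 46.0 and 47.3, was near the bottom of both arrays, with detection p-values of 0.635 and 0.75.

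The binding protein genes differed from each other. Crabp2 had a raw intensity of 159 ± 11.1 (31 beads) in total heart and 106 ± 5.23 (40 beads) in the lacZ-positive cells, the only detected gene of the 9 that was dimmer there before any normalisation. Its log2 signal was 7.16 and 5.94, a log2 ratio of -1.22 (bead standard error 0.170), or 2.32-fold lower, and 4.66% of detected genes had a lower ratio. Crabp2 was read by 1 probe, so other detection limits and the mean of detected probes left its ratio at -1.22 by construction. Of the treatments that could change it, only median scaling (-1.23) kept it past 2-fold. The direction was the same under all 9 alternative treatments of the data, but the size fell under 2-fold in 4 of them. It was -0.87 with no normalisation, -0.88 with no background correction, -0.89 with an offset of 50 and -0.82 in the authors' processed values. Relative to the median of all genes these values were -1.29, -0.91, -0.93 and -0.86 in the same order, so that only the first was past 2-fold.

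Crabp1 had a raw intensity of 168 ± 8.13 (40 beads) in total heart and 224 ± 9.77 (38 beads) in the lacZ-positive cells. After normalisation the log2 signals were 7.26 and 7.37, and the log2 ratio of 0.11 was smaller than its bead standard error of 0.116. The raw difference was thus about that of the arrays as a whole. The log2 ratio without normalisation was 0.47, of which 0.05 remained relative to the median of all genes. Markers of foregut endoderm and of neural crest, cells that dissociated hearts could also hold, were read as well. Of 5 detected endoderm markers, Cldn6 was detected on both arrays and was 6.29-fold lower. The other 4 were detected in total heart only and passed the filter through it, so their direction is not independent of the filter. At their bounds Cldn4 was at least 2.47-fold lower, Shh at least 2.18-fold, Foxa1 at least 1.79-fold and Cdh1 at least 1.45-fold, and the list median was -1.13. The endoderm sum was 730 in total heart and 171 in the lacZ-positive array, and Epcam, Foxa2 and Sox2 were detected on neither. All 3 detected neural crest and neuron markers were within 2-fold, Ednrb at 0.17, Stmn2 at -0.06 and Sox10 at -0.61, with sums of 5047 and 5645. Most of both sums was Ednrb, at log2 signals of 12.26 and 12.43, against 6.33 and 5.71 for Sox10. Whether endoderm, cardiomyocyte or other cells carried the Crabp2 signal of total heart was not tested. In samples of many cells, fewer cells of a type and less RNA per cell cannot be told apart.

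The breakdown genes were not detected. Cyp26a1, the retinoic acid hydroxylase whose promoter is shown above, had raw intensities of 65.4 ± 4.72 in total heart and 62.7 ± 4.07 in the lacZ-positive cells by its brighter probe. Its other probe had 51.8 and 47.8. Cyp26b1, which encodes a related enzyme, had 65.6 ± 4.06 and 65.3 ± 4.45. These raw values overlapped between the arrays within their bead errors. At a detection limit of 0.05 the brighter Cyp26a1 probe and that of Cyp26b1 were detected in total heart only, and no difference in size is read from this. Their log2 ratios of -0.33 and -0.26 were close to their bead standard errors of 0.298 and 0.283.

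**Figure D3:**
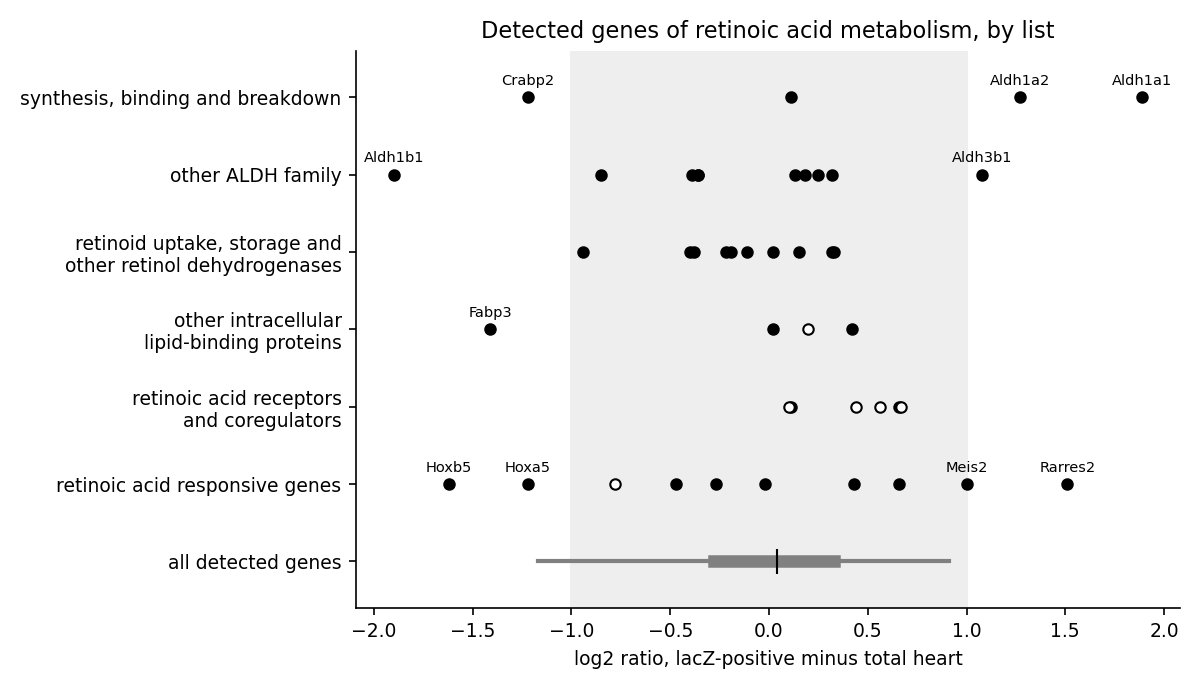
Log2 ratios, lacZ-positive minus total heart, of the detected genes of retinoic acid synthesis, binding and breakdown (top) and of 5 lists of related genes, with genes past 2-fold named and the band within 2-fold shaded. Open points were detected on 1 array only. The grey bar shows all detected genes from the 5th to the 95th percentile (-1.17 to 0.91), thick between the quartiles (-0.28 to 0.33), with the median as a tick.

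Related genes were taken from 6 lists that held 82 genes, of which 74 had a named probe and 38 were detected. Over the array, 9713 of 19057 named genes were detected. Higher genes past 2-fold numbered 3 of the 38, lower ones 4, and 31 stayed within 2-fold. Over all detected genes 3.82% were at least 2-fold higher and 6.44% at least 2-fold lower. The median log2 ratio of the 38 was 0.06. No probe was named with either gene of the list of further breakdown genes. Among other aldehyde dehydrogenases 10 of 16 were detected, with 1 higher, 1 lower, 8 within 2-fold and a median of -0.11. Aldh3b1 was 2.11-fold higher by its brighter probe and 1.37-fold by the other, and was under 2-fold with a larger offset (50), without background correction, in the authors' values and by the mean of its probes. Aldh1b1, a mitochondrial enzyme, was 3.74-fold lower, with raw intensities of 317 in total heart and 135 in the lacZ-positive cells, and stayed past 2-fold under all 9 alternatives. Aldh3a2 (0.32) and Aldh2 (0.25) had the next highest ratios, and Aldh5a1 (-0.85) and Aldh1l2 (-0.39) the next lowest. A dimmer probe gave 0.51 for Aldh3a2, -0.67 for Aldh1l2 (detected in total heart only) and -0.27 for Aldh5a1. The rest of the enzyme family was thus centred near 0 and held no other gene with a ratio as high as that of Aldh1a2.

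Of 27 genes with a named probe for retinoid uptake, storage and other retinol dehydrogenases, 10 were detected, all 10 within 2-fold, with a median of -0.15. The highest were Retsat (0.33), which saturates retinol, Rdh11 (0.32), a retinaldehyde reductase, and Dhrs4 (0.15). The lowest were Ttr (-0.94), the plasma carrier that moves retinol with its binding protein, Dgat1 (-0.40), which can esterify retinol, and Rdh14 (-0.38). This order depends on the probe. The other detected probe gave -0.14 for Retsat, 0.39 for Rdh11, 0.69 for Dhrs4 and -0.07 for Rdh14. The retinol receptor gene Stra6, the esterifying enzyme gene Lrat and the plasma binding protein gene Rbp4 were detected on neither array. Of 4 detected lipid-binding proteins related to the CRABPs, Fabp3, the muscle form, was 2.66-fold lower. Fabp5 (0.42), which can also carry retinoic acid, Fabp6 (0.20) and Rbp7 (0.02) were within 2-fold. Fabp6 was detected in the lacZ-positive cells only, and its ratio was smaller than its bead standard error of 0.221.

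All 6 detected genes of receptors and coregulators lay within 2-fold. Only Rarb and Rxrb were detected on both arrays. The other 4 passed the filter through the lacZ-positive array alone, which favours ratios above 0, so no direction is given for the list. Rarb, the receptor gene with the DR5 shown above, had raw intensities of 312 in total heart and 612 in the lacZ-positive cells by one probe and of 280 and 549 by the other. The log2 ratios were 0.66 (bead standard error 0.112) and 0.67 (0.118), so the probes gave nearly the same 1.58-fold and 1.59-fold. Without normalisation between arrays Rarb was past 2-fold, at 1.05. Rarg, another retinoic acid receptor, was detected in the lacZ-positive cells only. By its brighter probe the bound was 1.40-fold and the log2 ratio 0.67 (bead standard error 0.222). The other Rarg probe, also detected in the lacZ-positive cells only, had a bound of 1.18-fold and a log2 ratio of 0.55 (0.177). Rxra, a partner of these receptors and likewise detected there only, had a bound of 1.23-fold and a log2 ratio of 0.56 (0.195). Rxrb stood at 0.11 by its brighter probe and at -0.16 by the other. Rxrg, detected in the lacZ-positive cells only, had a log2 ratio of 0.10, smaller than its bead standard error of 0.177, so no increase is read. Ncoa2, a coactivator gene also detected there only, has no bound above 1-fold. Rara, the remaining receptor of its family, was detected on neither array.

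Genes reported to be induced by retinoic acid lay on both sides. Of 16 with a named probe 10 were detected, with 2 higher, 2 lower, 6 within 2-fold and a median of -0.14. Rarres2, which encodes the chemoattractant chemerin, was 2.86-fold higher by its brightest probe and 2.98-fold by the next. Its remaining probe gave a log2 ratio of -0.68, and the mean of the 3 was 0.80, under 2-fold. Meis2, a TALE homeobox gene, was 2.01-fold higher by its brightest probe and 2.20-fold and 4.58-fold by the others, and it stood at 0.99 at its lowest over the alternatives. Hoxb5 (3.08-fold) and Hoxa5 (2.33-fold), homeobox genes of body patterning, were lower, and without normalisation Hoxa5 was at -0.85. Rarb (0.66) was the third highest. Tbx5, a transcription factor gene of the atria and left ventricle, was detected in total heart only and passed the filter through it. Its bound was 1.48-fold and its log2 ratio -0.78 (bead standard error 0.212). In the 31 genes with a DR5 in a promoter window, 9 had a named probe and 7 were detected. Of these 0 were higher, 5 were within 2-fold, Rarb among them, and 2 were lower, against 3.82% higher and 6.44% lower over detected genes. The 2 were Ppbp (3.83-fold), a platelet chemokine gene, and Blvrb (4.21-fold), a heme breakdown gene abundant in red cells, both named after their values were seen.

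**Figure D4:**
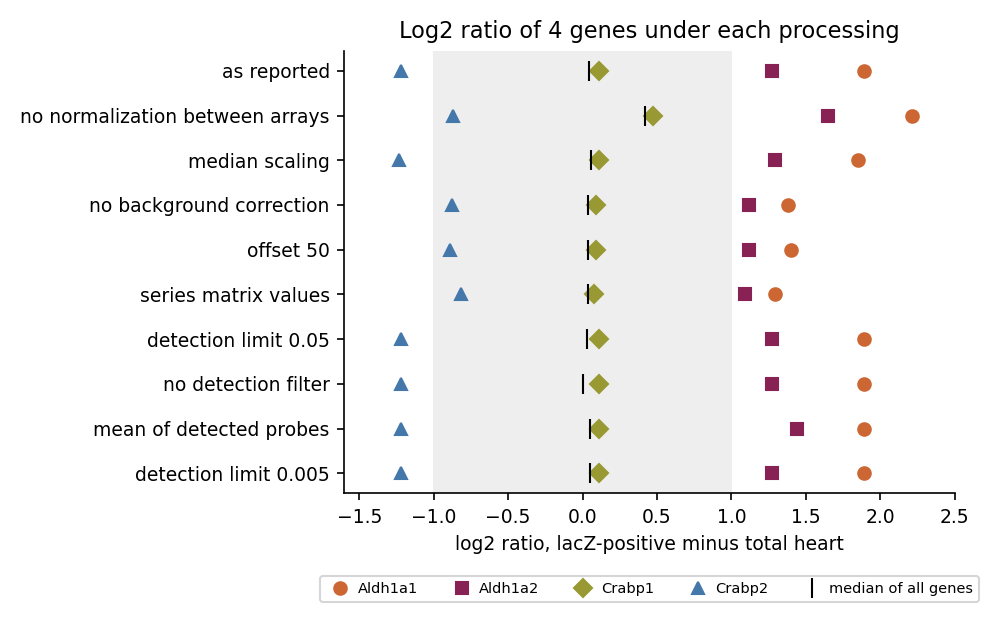
Log2 ratios of the 4 detected genes as reported and under 9 other treatments of the data, with the median of all genes as a tick and the band within 2-fold shaded. Aldh1a1 ranges from 1.29 to 2.21 and Aldh1a2 from 1.09 to 1.65, always outside the band. Crabp2 ranges from -1.23 to -0.82 and is inside it in 4. Changes of the detection limit leave all 4 ratios as reported.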

How the data were processed

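Gene expression was measured on 2 Illumina mouse arrays, 1 per group, so no test, SD or replicate number can be given. RNA was made into biotin-labelled cRNA, per the labels' protocols, and the submitters' processing notes name GenomeStudio. Normalization method and genome build: not given in the sources used here. As deposited by the authors, the main table held a mean bead intensity per probe, unscaled and on a linear scale, with its bead standard error, the count of beads and a detection p-value, per the file headers. The p-values were multiples of 1/936. A second deposited table held processed intensity values whose sorted columns differed by at most 0.141% and which ranked the probes of each array as the unprocessed ones did.

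Intensities were background-corrected by the normexp model with background estimated from the detection p-values (nec, limma 3.58.1, R 4.3.3), with an offset of 16, then quantile normalization and log2. A gene was analysed if a probe had a detection p-value under 0.01 on 1 array or more, and stands by its brightest detected probe, by the mean of both log2 signals. The log2 ratio is lacZ-positive minus total heart. Its bead standard error covers bead-to-bead error only and was computed from the corrected intensities before quantile normalization. A gene detected on 1 array has a bound, taken against its own dim signal or the lowest detected signal of that array, whichever is higher. The bound leaves out bead error. Steps were tested on simulated data with changes placed in bright probes only. Recovery of changes in probes as dim as those of Aldh1a1, Crabp1 and Crabp2 was not tested. Of 45281 probes, 34885 had 1 gene symbol, 18 several and 10378 none. Named genes were the 9 genes, Tcf21, and of each related list the genes past 2-fold and the 3 highest and 3 lowest. Other genes named as not detected, as close relatives or for completeness were chosen after their values were seen. The genes and lists were chosen with earlier results of these data known. No gene was named for a similar pattern, since 2 arrays give a single difference. Of hepatoblast markers, 2 of 5 detected were at least 2-fold lower, from Apoa2 (-1.10) to Hnf4a (-0.36), and of endothelial markers 1 of 7 was, from Cldn5 (-1.59) to Tek (0.50). Promoter sequences are those of RefSeq on GRCm38.p6, matched by symbol.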

Additional observations from a re-analysis of the deposited data

How the results depend on the processing

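Of the 9 alternatives, 8 were planned and the detection limit of 0.005 was added after seeing the data. Aldh1a1 and Aldh1a2 were at least 2-fold higher under all 9. Changes of the detection limit left the ratios of both and of Crabp2 as they were. The mean of detected probes could not change the genes read by 1 probe, Aldh1a1 and Crabp2. The count of genes of retinoic acid synthesis, binding and breakdown that were at least 2-fold lower, 1 as reported (Crabp2), was 0 with no normalization between arrays, no background correction, an offset of 50 and the series matrix values. Their median log2 ratio of 0.69 was 1.06 with no normalization, 0.22 at a detection limit of 0.05 and 0.11 with no detection filter, where 8 and 9 of the genes enter in place of 4. Over all genes, 1020 were higher and 381 lower with no normalization, against 371 and 626. The higher ones numbered 225 with no background correction, 223 with an offset of 50 and 219 in the series matrix values, which gave 404 lower. Of the related lists, 3 genes were higher as reported and 1 with no background correction, an offset of 50 or the mean of detected probes. A larger offset or no background correction shrinks ratios of dim probes by construction, and the cause of other shifts was not tested. No paired analysis was possible because each group had 1 array. With 9 of the 14 probes under the detection limit on both arrays, signal over background limits what can be said of Aldh1a3, Rdh10, Dhrs3, Cyp26a1 and Cyp26b1.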
